A study of Mus musculus with 16 samples.

Results

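The comparison described here asks whether nephritis changed gene expression in CD4+ T cells by the same amount when NEMO was deleted as when IKK2 was deleted. For each gene, the nephritis response in the NEMO knockout (nephritis minus untreated) was set against the nephritis response in the IKK2 knockout, and the difference between both responses was tested. The samples were chosen by title, and 10 of the 16 arrays of the series enter the difference. The mice were CD4xNEMO with nephrotoxic serum nephritis (2 arrays) and CD4xNEMO untreated (2 arrays), and they were set against CD4xIKK2 with nephritis (3 arrays) and CD4xIKK2 untreated (3 arrays). CD4cre mice with nephritis (3 arrays) and untreated CD4cre mice (3 arrays) enter the estimate of the spread, and their levels are given for reference.

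In every group Cre recombinase was driven by the CD4 promoter. The CD4cre mice carried it alone, the CD4xIKK2 mice with floxed IKK2 (IKK2fl/fl) and the CD4xNEMO mice with floxed NEMO (NEMOfl/fl in the protocol, NEMOfl/f in the sample labels). All mice were males of 8 to 10 weeks. Nephritis was induced by an intraperitoneal injection of sheep nephrotoxic serum at 2.5 mg per g body weight, and organs were taken on day 10. "Untreated" stands here for the samples labelled as having no inflammation, for which no control injection is described. CD4 is switched on in the thymus before the CD4 and CD8 lineages part, so the deletion starts in developing thymocytes and is not limited to mature CD4+ cells. Splenic CD4+ T cells were enriched with a kit and sorted, and the submitters assessed deletion by PCR.

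NF-kB transcription factors are held in the cytosol by IkB proteins. In the canonical pathway, which the T cell receptor and TNF family receptors use, a kinase complex marks IkB for destruction. The complex holds the kinases IKK1 (Chuk) and IKK2 (Ikbkb) and the regulatory subunit NEMO (Ikbkg). NEMO is needed for the activity of the complex as a whole, whereas IKK1 can stand in for part of the work of IKK2. The noncanonical pathway runs through NIK (Map3k14) and IKK1 to the processing of p100 (Nfkb2), without NEMO or IKK2. In T cells these pathways support survival, effector differentiation and regulatory T cells.

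Levels are given as log2 of the background-subtracted spot intensity relative to the 75th percentile of the array, so a log2 level of 0 equals that percentile, and levels of different probes are not set against each other. A gene was called when its adjusted p (Benjamini-Hochberg over 14675 genes, limma) was under 0.05. Nothing in the labels says whether arrays of a group came from separate mice, so p-values describe the spread among these arrays alone, whether biological or technical. In bulk RNA, fewer cells of a type and less RNA per cell cannot be told apart.

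Between 48.9% and 59.8% of spots were well above background on each of the 16 arrays, and 0 spots were saturated. Arrays of each knockout group correlated across genes at 0.984 or more. On the first principal component of the 10 knockout arrays, which held 65.1% of the variance, the 4 NEMO arrays lay between 54.17 and 70.24 and the 6 IKK2 arrays between -53.8 and -14.77. The 4 NEMO arrays were hybridised on 1 slide. Of the 6 IKK2 arrays, 5 shared another slide, and untreated replicate 3 lay on another slide together with the untreated CD4cre arrays. The mean net signal of negative controls was 16.4 to 17.7 on the NEMO slide, 40.5 to 46.0 on the slide of the 5 IKK2 arrays and 19.5 to 22.4 on that of replicate 3. The knockouts shared no slide, so differences in level between NEMO and IKK2 arrays cannot be told apart from slide, whereas each response compares arrays within 1 slide apart from untreated IKK2 replicate 3. A fit with slide as a block measures each response within 1 slide. Untreated IKK2 replicate 3 is the only knockout array on its slide, so that fit equals the fit without this array. Values given below as within slides are no check apart from it. All 12 T cell markers (Cd3e, Cd4, Lck and others) were well above background on every knockout array. So were all 12 dendritic cell markers, so detection alone does not single out the labelled cell type. The summed linear level of the T cell markers, in units of the 75th percentile, was 1366 to 1385 with nephritis and 1394 to 1464 untreated in the NEMO knockout, and 1463 to 1562 with nephritis and 1495 to 1627 untreated in the IKK2 knockout.

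Ikbkg, which encodes NEMO, had log2 levels of -0.71 and -0.59 with nephritis and -0.94 and -0.74 untreated in the NEMO knockout. IKK2 knockout cells had log2 levels of -0.33, -0.53 and -0.36 with nephritis and -0.0065, -0.0013 and -0.0636 untreated. Ikbkg in CD4cre mice had log2 levels of -0.26, -0.40 and -0.26 with nephritis and -0.85, -0.74 and -0.52 untreated, which overlap those of the untreated NEMO arrays. The responses differed by a log2 value of 0.57 (SE 0.15, adjusted p = 0.160), and a second probe gave 0.75. Ikbkb, which encodes IKK2, had log2 levels of 2.78 and 2.86 with nephritis and 2.84 and 3.06 untreated in the NEMO knockout. In the IKK2 knockout Ikbkb had log2 levels of 3.02, 2.95 and 2.91 with nephritis and 3.31, 2.88 and 2.99 untreated, against 3.27, 3.45 and 3.18 with nephritis and 3.30, 3.31 and 3.30 untreated in CD4cre mice. Its log2 difference of responses was -0.04 (SE 0.17, adjusted p = 0.974), and the sign of this value turned under some alternatives. Where these probes lie relative to the deleted exons is not stated in the sources used, so their levels neither bear out nor go against the genotype labels.

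The nephritis response differed between the knockouts for 37 genes, which is 0.252% of the 14675 tested. The response was lower in the NEMO knockout for 34 of them (0.232%) and higher for 3 (0.0204%). Without adjustment, 1579 genes (10.8%) had a p under 0.05, and the median log2 difference over all genes was -0.0126. Of the 34 lower genes 9 were well above background on the untreated NEMO arrays only. They passed the filter on dim probes through the group in which they were high, and they are described apart. Of the other 25 lower genes, 14 passed the test in the NEMO response alone, 4 passed in the IKK2 response alone, 2 in both with opposite signs and 5 in neither. All 3 higher genes passed in the IKK2 response alone, where nephritis lowered them.

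In the NEMO knockout 61 genes (0.416%) responded to nephritis, of which 52 fell (0.354%) and 9 rose (0.0613%). Nephritis changed 65 genes (0.443%) in the IKK2 knockout, of which 29 fell (0.198%) and 36 rose (0.245%). These responses share no array, and across all 14675 genes they correlated at a Pearson r of 0.156, with the same sign for 46.6% of genes. Across the 12074 of these genes whose probe was well above background on all 10 arrays r was 0.102. Genes are not independent replicates, so these values are descriptions only.

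**Figure D1:**
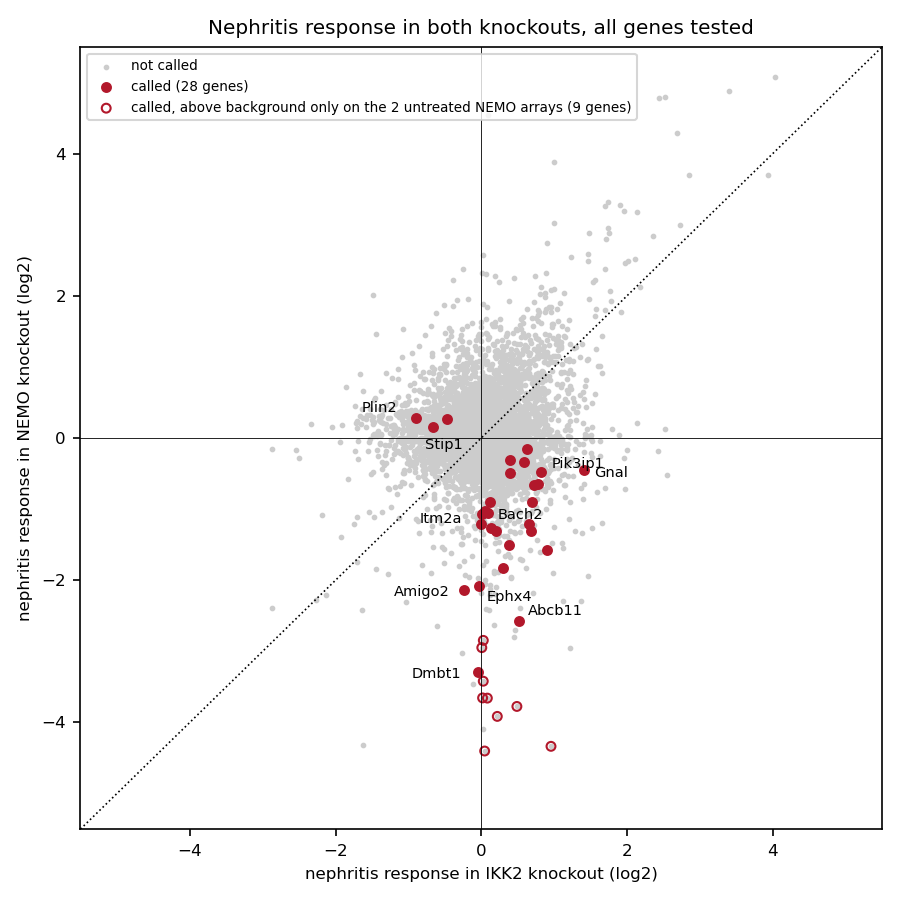
Nephritis response (log2, nephritis minus untreated) of each of 14675 genes in the NEMO knockout (y axis) against the IKK2 knockout (x axis). Grey points are genes not called for the difference of responses, filled red points 28 called genes, and open red circles 9 called genes whose probe was well above background on the 2 untreated NEMO arrays only; fitted values of dim probes are drawn as fitted. Most called genes lie below the dotted line of equal responses, near 0 on the x axis and below 0 on the y axis.

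The number of called genes depended on single arrays. It was 43 and 14 without NEMO nephritis replicate 1 and 2, and 21 and 19 without untreated NEMO replicate 1 and 2. It was 29, 13 and 15 without IKK2 nephritis replicate 1, 2 and 3, and 87, 18 and 15 without untreated IKK2 replicate 1, 2 and 3. Of the responses themselves, the count of 61 in the NEMO knockout was 23 without NEMO nephritis replicate 2 and 40 and 30 without untreated NEMO replicate 1 and 2. The count of 65 in the IKK2 knockout was 124, 17 and 8 without IKK2 nephritis replicate 1, 2 and 3, and 163 and 31 without untreated IKK2 replicate 1 and 2. It was also 34 without either NEMO nephritis array and 43 without either untreated NEMO array, which enter that response only through the estimate of the spread. Measured within slides, which is the fit without untreated IKK2 replicate 3, 15 genes were called for the difference. Of these 14 were among the 37. Of the 28 called genes measured beyond the untreated NEMO arrays, 9 were called within slides, and 3 (Dmbt1, Abcb11 and Amigo2) kept their call without any one of the 10 arrays. Dmbt1 and Abcb11 were not well above background on the NEMO nephritis arrays.

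**Figure D2:**
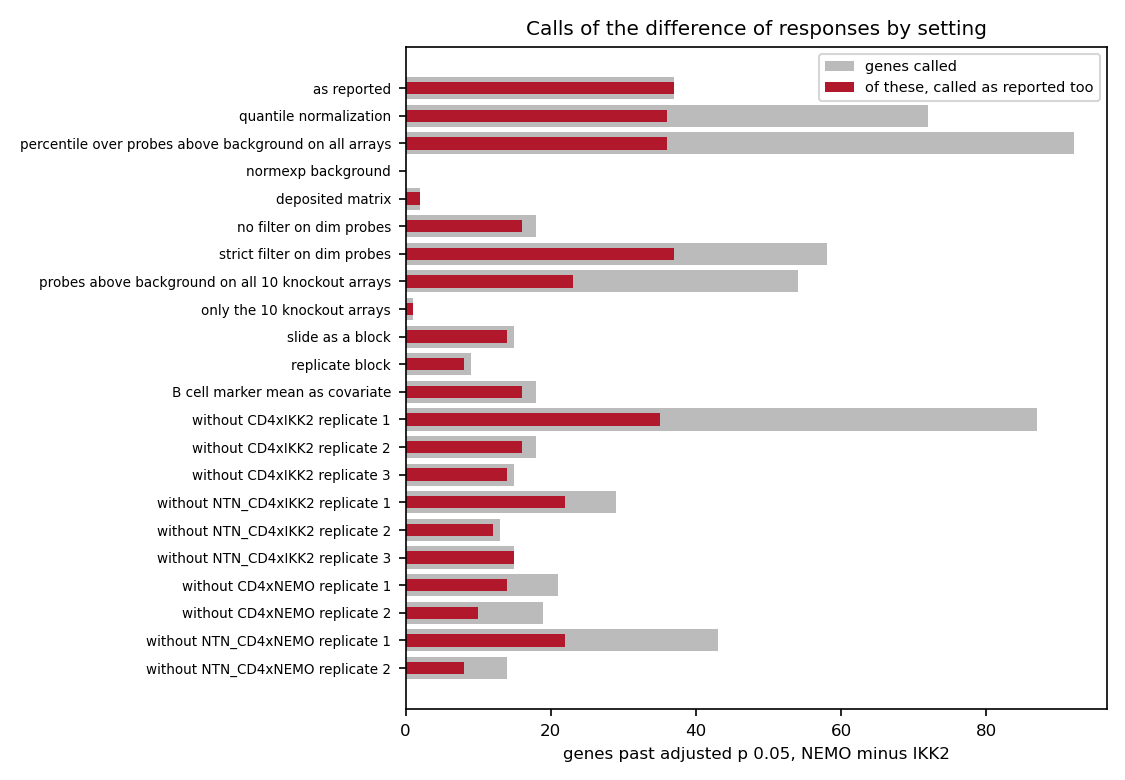
Number of genes called for the difference of responses (x axis) under each processing setting (y axis), with all called genes in grey and those also among the 37 reported in red. Counts run from 0 with normexp background correction to 92 with the percentile taken over probes above background on all arrays.

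Amigo2 encodes a cell adhesion protein with immunoglobulin-like and leucine-rich domains. Its log2 levels were -3.36 and -3.87 with nephritis and -1.60 and -1.37 untreated in the NEMO knockout. On IKK2 arrays the levels were 0.35, 0.30 and 0.17 with nephritis and 0.39, 0.62 and 0.50 untreated. Both NEMO nephritis arrays lay below both untreated ones, and all NEMO arrays lay below all IKK2 arrays. Nephritis lowered Amigo2 4.38-fold in the NEMO knockout (adjusted p = 6.49e-05), while the log2 response in the IKK2 knockout was -0.23 (adjusted p = 0.41). The log2 difference of responses was -1.90 (SE 0.19, adjusted p = 0.00367), and leaving out single arrays gave adjusted p values from 0.00038 to 0.013. Within slides it was also -1.90 (adjusted p = 0.007).

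Abcb11, the bile salt export pump known from hepatocytes, fell with nephritis in the NEMO knockout and rose in the IKK2 knockout. The log2 levels were -7.70 and -7.65 with nephritis, where the probe was not well above background, and -5.05 and -5.14 untreated in the NEMO knockout. IKK2 knockout cells had log2 levels of -1.77, -1.80 and -1.98 with nephritis and -2.54, -2.37 and -2.21 untreated. The groups did not overlap in either knockout. The signal was at least 1.49-fold lower with nephritis in the NEMO knockout (adjusted p = 6.96e-07) and 1.44-fold higher in the IKK2 knockout (adjusted p = 0.0375). This lower bound is the mean of the brighter group over a floor set by the dimmest signals well above background on the arrays of the dim group. The untreated NEMO levels lay close to the dimmest signals well above background on their own arrays, -5.22 and -5.40. Adjusted p values here belong to fitted differences that use the dim signals as measured, and not to the bound. The difference of responses had an adjusted p of 1.57e-06, and of 2.4e-06 to 4.5e-05 when single arrays were left out. Its mean log2 level was -2.14 with nephritis and -2.55 untreated in CD4cre mice.

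Dmbt1 encodes a secreted scavenger receptor of mucosal surfaces. Log2 levels were -6.73 and -7.33 with nephritis, not well above background, and -3.97 and -3.49 untreated in the NEMO knockout. On IKK2 arrays the levels were -1.46, -1.38 and -1.45 with nephritis and -1.53, -1.67 and -0.95 untreated. It was at least 3.82-fold lower with nephritis in the NEMO knockout, whereas the IKK2 groups overlapped. The adjusted p of the difference was 0.00756.

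Bach2 encodes a transcription repressor that holds back effector differentiation of T cells. Its log2 levels were 0.41 and 0.15 with nephritis and 1.12 and 1.25 untreated in the NEMO knockout. IKK2 knockout cells had log2 levels of 3.0, 3.08 and 3.13 with nephritis and 2.81, 2.96 and 3.08 untreated. The NEMO groups were apart and both lay below every IKK2 array, while the IKK2 groups overlapped. Nephritis lowered Bach2 1.87-fold in the NEMO knockout (adjusted p = 0.010), and its log2 response in the IKK2 knockout was 0.12 (adjusted p = 0.69). Between the knockouts the log2 responses differed by -1.02 (SE 0.17, adjusted p = 0.0425). A second probe gave -1.09, and the value within slides was also -1.09 with an adjusted p of 0.053. The call held in 2 of the 10 fits that left out 1 array, with adjusted p values from 0.034 to 0.18.

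Itm2a encodes a membrane protein known from developing thymocytes. The log2 levels were 1.77 and 1.25 with nephritis and 2.64 and 2.54 untreated in the NEMO knockout. On IKK2 arrays the levels were 4.24, 4.25 and 4.05 with nephritis and 4.22, 4.15 and 4.12 untreated. Nephritis lowered it 2.10-fold in the NEMO knockout, and the IKK2 groups overlapped. The log2 difference of responses was -1.09 (SE 0.18, adjusted p = 0.0425), within slides -1.07 (adjusted p = 0.085).

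Slc7a3, a transporter of cationic amino acids, had log2 levels of -3.96 and -3.90 with nephritis and -2.95 and -2.85 untreated in the NEMO knockout. In the IKK2 knockout Slc7a3 had log2 levels of -1.88, -1.82 and -1.65 with nephritis and -1.74, -1.89 and -1.86 untreated. The responses differed by a log2 value of -1.08 (SE 0.16, adjusted p = 0.0201). Aldh1l1, an enzyme of folate metabolism, had log2 levels of -2.84 and -3.19 with nephritis and -1.56 and -1.45 untreated in the NEMO knockout, against 1.18, 1.12 and 1.25 with nephritis and 1.10, 0.69 and 0.64 untreated in the IKK2 knockout. The log2 difference for Aldh1l1 was -1.89 (SE 0.32, adjusted p = 0.0461). Ephx4, an epoxide hydrolase family member, had log2 levels of -4.5 and -5.07 with nephritis and -2.83 and -2.58 untreated in the NEMO knockout, and of -1.16, -0.83 and -1.26 with nephritis and -0.88, -1.0 and -1.26 untreated in the IKK2 knockout. For Ephx4 the log2 difference was -2.05 (SE 0.29, adjusted p = 0.0184). The NEMO groups of Slc7a3, Aldh1l1 and Ephx4 did not overlap. The IKK2 groups of Slc7a3 and Ephx4 overlapped, while those of Aldh1l1 did not and were higher with nephritis. Within slides the calls of all 3 were lost, at adjusted p values of 0.0529 (Slc7a3), 0.0868 (Aldh1l1) and 0.0504 (Ephx4), and they were kept in 2, 1 and 6 of the 10 fits without 1 array.

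Padi3, a peptidylarginine deiminase, and Cdr2l, a coiled-coil protein, kept their calls in 8 of the 10 fits that left out 1 array. Padi3 had log2 levels of -2.63 and -2.99 with nephritis and -1.53 and -1.47 untreated in the NEMO knockout, against -0.12, 0.16 and 0.03 with nephritis and -0.07, -0.38 and -0.12 untreated in the IKK2 knockout. Its log2 difference of responses was -1.52 (SE 0.21, adjusted p = 0.0144). Cdr2l had log2 levels of -4.21 and -4.20 with nephritis and -2.99 and -2.88 untreated in the NEMO knockout, against -1.42, -1.32 and -1.16 with nephritis and -1.45, -1.48 and -1.37 untreated in the IKK2 knockout. Its log2 difference was -1.41 (SE 0.19, adjusted p = 0.0146). Both genes fell in the NEMO knockout and did not pass in the IKK2 knockout, at adjusted p values of 0.50 and 0.69.

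Another 5 genes fell in the NEMO knockout without passing in the IKK2 knockout. They were Cxcr1, a receptor for the chemokine interleukin 8 in human, Kcnh3, a potassium channel, Bend5, Odf3b and 1700123K08Rik. Their log2 differences of responses were -1.87 (Cxcr1), -1.21 (Kcnh3), -2.12 (Bend5), -1.15 (Odf3b) and -2.0 (1700123K08Rik), with adjusted p values of 0.0146 to 0.0482. Within slides 1700123K08Rik was still called (adjusted p = 0.0382), while the calls of Cxcr1, Kcnh3, Bend5 and Odf3b were lost, at adjusted p values of 0.0618 to 0.0900. The call of 1700123K08Rik held in 7 of the 10 fits without 1 array, and those of the others in 1 to 3. Cxcr1 was well above background on 1 of the 2 NEMO nephritis arrays. Bend5 had a second probe at -1.30.

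Untreated cells already differed between the knockouts for most of these genes, as for many others, although slide cannot be told apart from knockout here. Of all genes tested, 35.3% passed the test between untreated NEMO and untreated IKK2 arrays, 15.4% higher and 19.9% lower in the NEMO knockout. Of the 25 lower genes whose probe was measured beyond the untreated NEMO arrays, 18 were lower in the untreated NEMO than in the untreated IKK2 knockout, and 16 of the 25 passed the test in that direction against 4 in the other. With nephritis, both NEMO arrays lay below all 3 IKK2 arrays for 25 of 25, and both NEMO nephritis arrays lay below both untreated NEMO arrays for 24 of 25. Because the rule for calls used these values, the counts describe the called genes and test nothing. Shares of all genes whose arrays separate in these ways are not given here. The plot of levels by array shows 9 genes of the comparison.

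**Figure D3:**
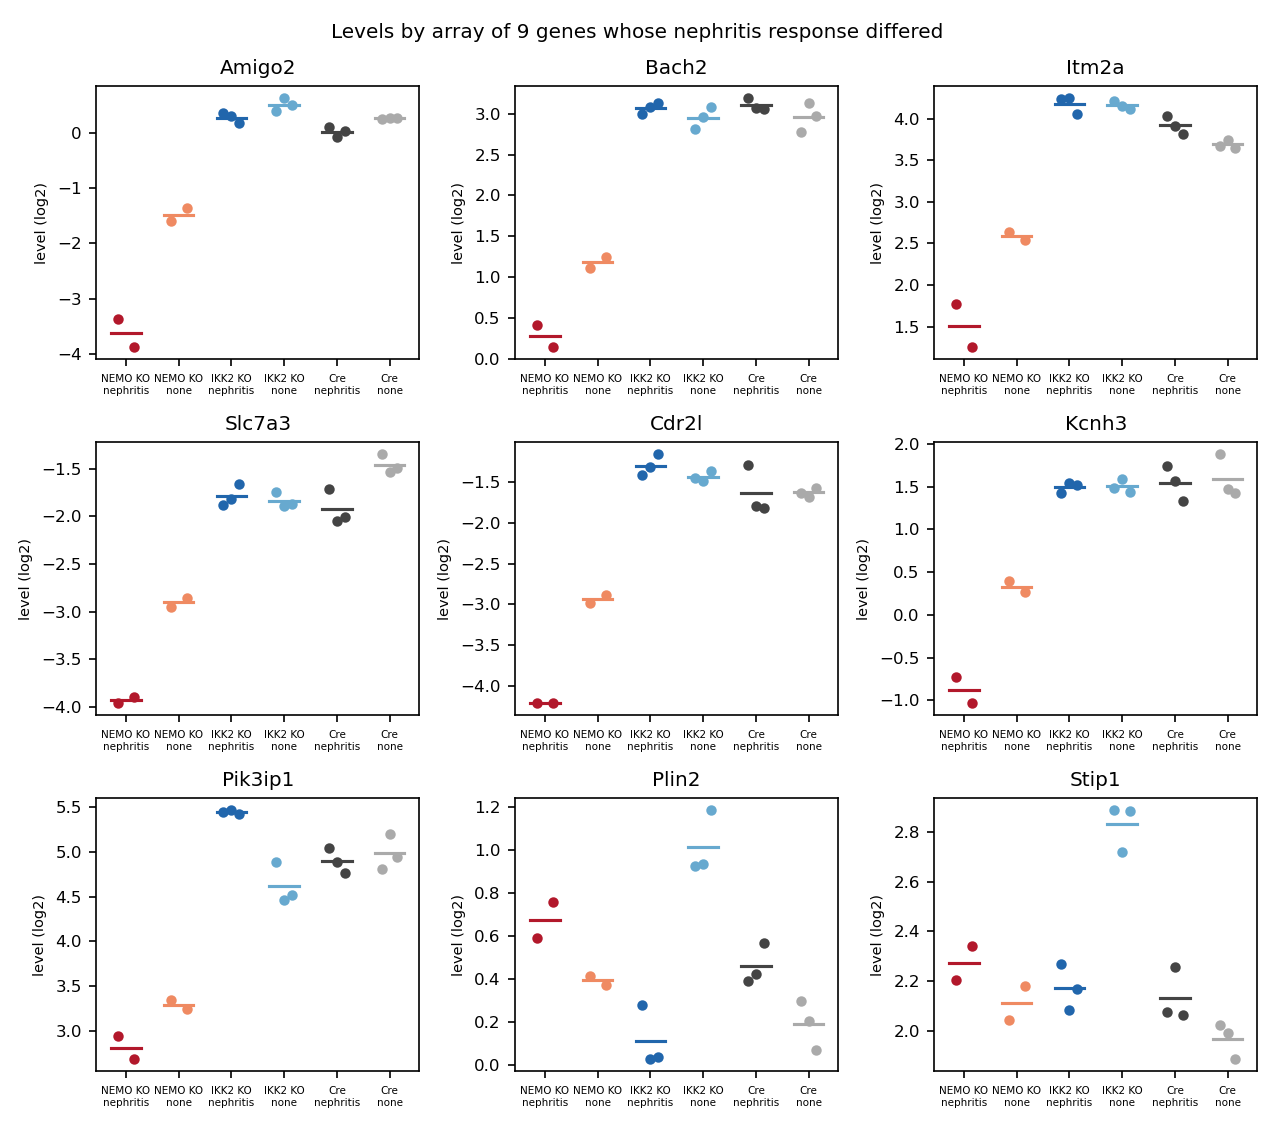
Log2 level relative to the 75th percentile of the array (y axis) of 9 called genes in the 6 groups (x axis: NEMO knockout, IKK2 knockout and Cre, each with nephritis and without), 1 point per array with the group mean as a bar. Amigo2, Bach2, Itm2a, Slc7a3, Cdr2l and Kcnh3 are lowest on the 2 NEMO nephritis arrays, Pik3ip1 is highest on the 3 IKK2 nephritis arrays, and Plin2 and Stip1 are highest on the 3 untreated IKK2 arrays; each panel has its own scale.

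The 9 called genes measured on the untreated NEMO arrays alone were Slc24a4 (an ion exchanger), Crx (a photoreceptor transcription factor), the vomeronasal receptors Vmn2r16 and Vmn1r35, Rbfox3 (a neuronal splicing factor), Adgrl2 (an adhesion receptor), Slc17a2 (a phosphate transporter), Gfra1 (a receptor for glial growth factors) and 1700065J11Rik. Their probes were well above background on both untreated NEMO arrays, at log2 levels of -4.99 to -2.61, and on none of the other 14 arrays. Their log2 levels were -7.79 to -7.0 on the NEMO nephritis arrays, -7.37 to -4.28 on the IKK2 arrays and -7.22 to -4.88 on the CD4cre arrays. Since the filter kept these genes through that group, their calls and the stability of those calls support nothing here. Of all genes tested, 19 were well above background on the 2 untreated NEMO arrays only, and 51 on the 2 NEMO nephritis arrays only.

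Slc24a4 had log2 levels of -2.64 and -2.86 on the untreated NEMO arrays and was at least 7.55-fold lower with nephritis. Crx had log2 levels of -2.76 and -3.65 there and was at least 5.51-fold lower with nephritis. For the remaining 7 genes the bounds ran from 1.80-fold (1700065J11Rik) to 4.17-fold (Rbfox3). The untreated arrays differed between themselves for some of these genes, as for Rbfox3 at -2.61 and -4.61 and for Vmn1r35 at -4.95 and -3.41.

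A smaller set of 4 genes with a lower response in the NEMO knockout rose with nephritis in the IKK2 knockout, and their NEMO response did not pass. Pik3ip1 encodes an inhibitor of PI3 kinase that quiescent T cells carry. Log2 levels were 2.94 and 2.68 with nephritis and 3.34 and 3.24 untreated in the NEMO knockout, against 5.45, 5.46 and 5.42 with nephritis and 4.88, 4.46 and 4.52 untreated in the IKK2 knockout. The IKK2 groups did not overlap, and neither did the NEMO groups, which lay the other way round. Nephritis raised Pik3ip1 1.77-fold in the IKK2 knockout (adjusted p = 0.0215), and its log2 response in the NEMO knockout was -0.48 (adjusted p = 0.475). Between the knockouts the log2 responses differed by -1.30 (SE 0.21, adjusted p = 0.0356), within slides -1.25 (adjusted p = 0.076).

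Gnal, the alpha subunit of an olfactory G protein, had log2 levels of -1.28 and -1.77 with nephritis and -0.78 and -1.36 untreated in the NEMO knockout. Levels in the IKK2 knockout were -0.54, -0.09 and -0.29 with nephritis and -1.42, -2.11 and -1.60 untreated. The NEMO groups overlapped and the IKK2 groups did not. The log2 difference of responses for Gnal was -1.86 (SE 0.32, adjusted p = 0.0461), and a second probe gave -1.10. Within slides its call was lost (adjusted p = 0.0825). She, an SH2 domain adaptor, and 2010315B03Rik had log2 differences of -0.78 (adjusted p = 0.0356) and -0.93 (adjusted p = 0.0486), and both rose with nephritis in the IKK2 knockout. The call of 2010315B03Rik was lost within slides (adjusted p = 0.0640).

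Ppp1r3f, a subunit that directs protein phosphatase 1 to glycogen, was called in both responses with opposite signs. Its log2 levels were -1.39 and -1.48 with nephritis and -0.99 and -0.90 untreated in the NEMO knockout, and -0.30, -0.28 and -0.20 with nephritis and -0.56, -0.73 and -0.66 untreated in the IKK2 knockout. Nephritis lowered it 1.40-fold in the NEMO knockout (adjusted p = 0.0317) and raised it 1.31-fold in the IKK2 knockout (adjusted p = 0.0375). The log2 difference of responses was -0.88 (SE 0.11, adjusted p = 0.00809) and stayed called in 9 of the 10 fits without 1 array. Ppp1r3f and Abcb11 were the 2 genes called in both responses. That count was 2 without untreated IKK2 replicate 1, 1 without untreated IKK2 replicate 3 or IKK2 nephritis replicate 1, and 0 without any other single array.

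In 5 called genes neither response passed by itself, and 4 of them are described here. The log2 differences were -1.44 for Zc3h6, a zinc finger protein, and -0.71 for Fbxl20, an F-box protein. Fan1, a nuclease of DNA crosslink repair, was at least 1.53-fold higher with nephritis in the IKK2 knockout. Spink13, a protease inhibitor, was well above background on the untreated NEMO arrays and not on the other knockout arrays, and was at least 1.89-fold lower with nephritis; as for the 9 genes above, its call is no support. The adjusted p values of these 4 genes lay between 0.0461 and 0.0487, and each kept its call in 2 of the 10 fits without 1 array. Within slides all 4 calls were lost, at adjusted p values of 0.0640 to 0.0896.

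The 3 genes with a higher response in the NEMO knockout were ones that nephritis lowered in the IKK2 knockout. Plin2, which coats lipid droplets, had log2 levels of 0.59 and 0.76 with nephritis and 0.42 and 0.37 untreated in the NEMO knockout, against 0.28, 0.03 and 0.04 with nephritis and 0.92, 0.94 and 1.18 untreated in the IKK2 knockout. Nephritis lowered Plin2 1.87-fold in the IKK2 knockout (adjusted p = 0.00879), and its log2 response in the NEMO knockout was 0.28 (adjusted p = 0.75). Between the knockouts the log2 responses differed by 1.18 (SE 0.16, adjusted p = 0.0144), within slides 1.10 (adjusted p = 0.029).

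Stip1, a co-chaperone that links HSP70 and HSP90, had log2 levels of 2.21 and 2.34 with nephritis and 2.04 and 2.18 untreated in the NEMO knockout. IKK2 knockout cells had log2 levels of 2.27, 2.08 and 2.17 with nephritis and 2.89, 2.72 and 2.88 untreated. The 3 untreated IKK2 arrays stood above all other knockout arrays. The responses differed by a log2 value of 0.82 (SE 0.13, adjusted p = 0.0411), within slides 0.79 (adjusted p = 0.082). Aacs, which activates the ketone body acetoacetate, had log2 levels of 2.11 and 2.12 with nephritis and 1.86 and 1.82 untreated in the NEMO knockout, against 2.01, 1.76 and 1.89 with nephritis and 2.46, 2.34 and 2.27 untreated in the IKK2 knockout. Its log2 difference was 0.74 (SE 0.12, adjusted p = 0.0411), and the call was lost within slides (adjusted p = 0.0529). Stip1 kept its call in 3 and Aacs in 2 of the 10 fits without 1 array.

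Of 22 genes of naive and central memory T cells, 1 (Bach2) had a lower response in the NEMO knockout and 21 did not pass. The median log2 difference of responses of the 22 genes was -0.59, against -0.0126 over all genes, and 21 of the 22 lay below 0. An unadjusted p under 0.05 was reached by 12 of them, against 10.8% of all genes. This and the later gene lists were chosen with earlier results of these data known. Their counts beside shares of all genes are therefore descriptions and no support. The median of the naive and central list was -0.46 within slides. Its median log2 response was -0.36 in the NEMO knockout, where 1 gene passed, and 0.12 in the IKK2 knockout, where 0 genes passed in limma and 8 had an unadjusted p under 0.05 (14.9% of all genes did). In untreated cells 20 of the 22 were already lower in the NEMO than in the IKK2 knockout, where 19.9% of all genes were. Slide cannot be told apart from knockout in that count. The mean log2 level over the list was 3.16 and 2.94 with nephritis and 3.43 and 3.46 untreated in the NEMO knockout, against 4.93, 4.99 and 5.06 with nephritis and 4.99, 4.86 and 4.72 untreated in the IKK2 knockout.

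Ccr7, the receptor that leads naive T cells into lymph nodes, had log2 levels of 4.79 and 4.60 with nephritis and 5.52 and 5.55 untreated in the NEMO knockout, against 7.88, 8.10 and 8.16 with nephritis and 7.93, 7.82 and 7.45 untreated in the IKK2 knockout. Its log2 difference of responses was -1.15 (SE 0.21, adjusted p = 0.0546), just outside the threshold. Igfbp4, a binding protein of insulin-like growth factors, was at -1.54 (adjusted p = 0.0546). Foxp1, a transcription factor of T cell quiescence, was at -0.60 (adjusted p = 0.0546) and -0.51 and -1.46 with 2 other probes. Txk, a Tec family kinase, was at -0.75 (adjusted p = 0.0625). Slamf6, a receptor of the SLAM family, was the 1 gene of the list above 0, at 0.22 (adjusted p = 0.630), with a second probe at -0.52. Ramp1, at -0.38, had other probes at 0.12 and -0.06, and Foxo1, at -0.22, had a second probe at -0.04. Second probes of Tcf7 and Treml2 were at -0.25 and -0.39.

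Among 17 heat shock genes, which encode chaperones and their partners, 1 (Stip1) had a higher response in the NEMO knockout and 16 did not pass. The median log2 difference of responses was 0.54, 16 of 17 lay above 0, and 12 had an unadjusted p under 0.05. The list's median was 0.43 within slides. In the IKK2 knockout nephritis lowered 5 of the 17 genes, whereas 0.198% of all genes fell there. In the NEMO knockout 0 of 17 passed in limma and 0 had an unadjusted p under 0.05, which 6.38% of all genes reached there. The list's median log2 response was 0.11 in the NEMO knockout and -0.40 in the IKK2 knockout. In untreated cells 11 of the 17 genes were lower in the NEMO than in the IKK2 knockout, where 19.9% of all genes were. Slide cannot be told apart from knockout in that count. The mean log2 level over the list was 2.78 and 2.83 with nephritis and 2.50 and 2.82 untreated in the NEMO knockout. On IKK2 arrays it was 2.73, 2.54 and 2.80 with nephritis and 3.08, 3.05 and 3.4 untreated. The 3 untreated IKK2 arrays lay above all CD4cre arrays, whose highest mean was 2.75.

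Hsph1, a large HSP70-like chaperone, had log2 levels of 3.15 and 3.47 with nephritis and 2.69 and 3.48 untreated in the NEMO knockout. Levels in the IKK2 knockout were 2.95, 2.46 and 2.84 with nephritis and 3.92, 4.01 and 4.46 untreated. The untreated IKK2 arrays lay above all the others. The responses differed by a log2 value of 1.60 (SE 0.33, adjusted p = 0.0688). The other genes that fell in the IKK2 knockout were Dnaja1, Fkbp4, Stip1 and Chordc1. Their log2 responses there were -0.93 (Dnaja1, an HSP40), -0.65 (Fkbp4, an HSP90-bound immunophilin), -0.66 (Stip1) and -0.60 (Chordc1, an HSP90 partner). The call of Chordc1 was lost within slides (log2 -0.53, adjusted p = 0.097).

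Heat shock factor binds repeats of GAA in alternating orientation. The motif searched was 3 such units, GAA then TTC then GAA, each pair separated by 2 unspecified bases, on both strands and with overlaps allowed. It was looked for in RefSeq promoter windows of 300 bases (GRCm38.p6) that reach from upstream of a gene's start to just inside the gene, and was found in 198 of 32851 windows (0.603%). Of the heat shock genes 14 of 17 had a window, and 4 held the motif, against 179 of 27025 genes with a window (0.662%). Among these 4, Hspd1 and Hspe1 held the motif at the same bases, in overlapping windows on opposite strands. Of the 5 genes that fell in the IKK2 knockout, Hsph1 and Chordc1 held it, and their windows are shown to place the motif, in capitals. The window of Hsph1 lies at chr5:149636287-149636586 on the minus strand and that of Chordc1 at chr9:18292017-18292316 on the plus strand. The match starts at base 287 in Hsph1, and 3 overlapping matches start from base 247 in Chordc1. A match is a description of these letters and not evidence of binding.
Hsph1: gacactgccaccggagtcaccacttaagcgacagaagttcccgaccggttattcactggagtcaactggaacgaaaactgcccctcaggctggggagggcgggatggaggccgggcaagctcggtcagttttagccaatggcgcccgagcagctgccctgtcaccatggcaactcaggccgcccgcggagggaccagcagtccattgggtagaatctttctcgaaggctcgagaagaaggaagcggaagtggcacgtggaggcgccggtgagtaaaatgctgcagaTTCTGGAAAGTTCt
Chordc1: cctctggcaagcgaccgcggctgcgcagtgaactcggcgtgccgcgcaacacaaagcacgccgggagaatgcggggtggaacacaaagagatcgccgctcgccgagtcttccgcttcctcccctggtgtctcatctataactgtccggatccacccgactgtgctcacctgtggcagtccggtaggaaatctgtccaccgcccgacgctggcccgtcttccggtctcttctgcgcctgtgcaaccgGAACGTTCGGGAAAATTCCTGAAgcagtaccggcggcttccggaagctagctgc

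Of 18 genes known as targets of the glucocorticoid receptor, 1 (Pik3ip1) had a lower response in the NEMO knockout and 17 did not pass. The median log2 difference of responses was -0.34, with 13 of 18 below 0 and 9 at an unadjusted p under 0.05, and it was -0.42 within slides. In the IKK2 knockout nephritis raised 7 of the 18 genes, whereas 0.245% of all genes rose there. In the NEMO knockout 0 of 18 passed in limma and 4 had an unadjusted p under 0.05, which 6.38% of all genes reached there. The mean log2 level over the list was 2.31 and 2.31 with nephritis and 2.29 and 2.30 untreated in the NEMO knockout, against 2.73, 2.74 and 2.69 with nephritis and 2.24, 2.29 and 2.30 untreated in the IKK2 knockout. The 3 IKK2 nephritis arrays stood above the remaining knockout arrays. In CD4cre mice the mean log2 level was 2.46 to 2.64 with nephritis and 2.38 to 2.48 untreated. Serum glucocorticoid was not analysed here.

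Tsc22d3, which encodes GILZ, had log2 levels of 4.83 and 4.84 with nephritis and 4.70 and 4.92 untreated in the NEMO knockout, against 6.96, 7.0 and 7.01 with nephritis and 5.77, 5.53 and 5.28 untreated in the IKK2 knockout. Its log2 response in the IKK2 knockout was 1.47 (SE 0.19, adjusted p = 0.00879), and the log2 difference of responses was -1.44 (SE 0.30, adjusted p = 0.0734). Txnip, which binds thioredoxin and limits glucose uptake, had log2 levels of 4.61 and 4.5 with nephritis and 4.63 and 4.64 untreated in the NEMO knockout, against 6.24, 6.41 and 6.41 with nephritis and 4.80, 5.14 and 4.95 untreated in the IKK2 knockout. The NEMO groups of Txnip differed little and the IKK2 groups were far apart. Its log2 difference was -1.47 (SE 0.29, adjusted p = 0.0595), and a second probe gave -1.45. Ddit4, an inhibitor of mTORC1, had a log2 response of 1.5 in the IKK2 knockout and a log2 difference of -1.52 (adjusted p = 0.123). The other genes that rose in the IKK2 knockout were Dusp1 (log2 response 1.22), Cxcr4 (1.10), Pik3ip1 (0.83) and Per1 (0.58). Within slides the calls of Ddit4, Dusp1 and Per1 were lost, at adjusted p values of 0.054, 0.067 and 0.083.

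The glucocorticoid receptor binds inverted repeats. GNACA followed, after 3 unspecified bases (N), by its reverse complement TGTNC was searched, a palindrome that reads the same on both strands, and it was found in 156 of 32851 promoter windows (0.475%). Of the list 17 of 18 genes had a window and 3 held it, against 145 of 27025 genes with a window (0.5365%). Of the 7 genes that rose in the IKK2 knockout Txnip held it, from base 79 of its window at chr3:96557707-96558006 on the plus strand, shown here with the match in capitals.
Txnip: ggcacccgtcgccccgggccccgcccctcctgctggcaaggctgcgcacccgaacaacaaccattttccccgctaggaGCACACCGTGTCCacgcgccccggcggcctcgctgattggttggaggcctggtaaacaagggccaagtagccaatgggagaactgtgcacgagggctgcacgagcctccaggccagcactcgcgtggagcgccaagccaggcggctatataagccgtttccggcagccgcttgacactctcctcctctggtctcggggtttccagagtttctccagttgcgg

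None of the NF-kB lists had a called gene in the difference of responses, where 0.252% of all genes were called. Of 33 NF-kB target genes 4 had an unadjusted p under 0.05, near the 10.8% of all genes, and the median log2 difference was 0.10. For 26 components of the canonical pathway these values were 5 genes and -0.05, and for 21 components and receptors of the noncanonical pathway 2 genes and 0.03. The noncanonical members Map3k14 (NIK), Nfkb2 and Relb had log2 differences of -0.26 (adjusted p = 0.622), 0.34 (adjusted p = 0.597) and 0.23 (adjusted p = 0.748). In the NEMO knockout 0 genes of the 3 lists responded to nephritis in limma, with 2, 1 and 1 genes at an unadjusted p under 0.05, against 6.38% of all genes. In the IKK2 knockout 10, 5 and 4 genes of the 3 lists had an unadjusted p under 0.05, against 14.9% of all genes. The lists had median log2 responses of 0.01, 0.02 and 0.005 there. Of the listed genes 2 feedback inhibitors of NF-kB rose in the IKK2 knockout, Nfkbia and Tnfaip3, where 0.245% of all genes rose.

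Nfkbia encodes IkB alpha, the inhibitor that the complex marks for destruction and a target gene of NF-kB. The log2 levels were 6.0 and 6.21 with nephritis and 5.89 and 5.90 untreated in the NEMO knockout, against 5.76, 5.75 and 5.70 with nephritis and 5.04, 5.19 and 5.23 untreated in the IKK2 knockout. The groups did not overlap in either knockout. Its log2 response was 0.58 (SE 0.07, adjusted p = 0.00879) in the IKK2 knockout and 0.21 (adjusted p = 0.73) in the NEMO knockout, and the log2 difference of responses was -0.37 (SE 0.12, adjusted p = 0.238). Tnfaip3, the ubiquitin-editing enzyme A20, had log2 levels of 3.45 and 3.57 with nephritis and 3.71 and 3.49 untreated in the NEMO knockout, against 3.22, 3.50 and 2.98 with nephritis and 2.05, 2.03 and 2.60 untreated in the IKK2 knockout. The IKK2 groups of Tnfaip3 were apart and the NEMO groups overlapped. Its log2 difference was -1.10 (SE 0.26, adjusted p = 0.118), so neither gene's responses were shown to differ between the knockouts.

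Some other genes of activation, apoptosis and cytokine feedback rose with nephritis in the IKK2 knockout without a called difference of responses. Most members of their lists did not pass there. The median log2 response in the IKK2 knockout was 0.05 for 28 immediate early genes (15 above 0 and 13 below). For 18 BCL2 family genes it was -0.05 (8 above and 10 below), and for 14 cytokine feedback genes 0.09 (9 above and 5 below). Cd69, an early activation marker that retains T cells in tissue, had log2 levels of 1.96 and 2.23 with nephritis and 2.01 and 2.09 untreated in the NEMO knockout, against 3.76, 3.77 and 3.87 with nephritis and 2.84, 2.76 and 2.67 untreated in the IKK2 knockout. Its log2 difference was -1.0 (SE 0.19, adjusted p = 0.0553). Bcl2, which protects from apoptosis, and Bbc3 (PUMA), which promotes it, had log2 responses of 0.87 and 1.30 in the IKK2 knockout and 0.05 and -0.04 in the NEMO knockout, and adjusted p values of the difference of 0.104 and 0.0921. Socs3, a feedback inhibitor of cytokine receptors, and Zfp36l2, an RNA-binding protein that promotes mRNA decay, had log2 responses of 0.71 and 1.42 in the IKK2 knockout. The log2 differences of Socs3 and Zfp36l2 were -0.79 (adjusted p = 0.0838) and -1.37 (adjusted p = 0.0605).

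The effector lists had 0 called genes in the difference of responses by limma, against 0.252% of all genes. Counts at an unadjusted p under 0.05 are to be read against the 10.8% of all genes that reached it. The median log2 difference was 0.39 for 41 genes of antigen-experienced T cells (4 genes at an unadjusted p under 0.05), 0.37 for 22 Th1 genes (0 genes), 0.26 for 16 Th2 genes (1 gene), -0.10 for 18 Th17 genes (0 genes), 0.37 for 24 regulatory T cell genes (7 genes), 0.24 for 15 follicular helper genes (2 genes) and 0.74 for 17 genes of innate-like T cells (3 genes). Within slides the medians were 0.24 for antigen-experienced, 0.07 for Th1, -0.42 for Th17 and 0.09 for follicular helper genes. With normexp background correction they were 0.16 for Th2, 0.25 for regulatory and 0.48 for innate-like T cell genes. In untreated cells many of these genes already differed between the knockouts, although slide cannot be told apart from knockout here. Of the 41 antigen-experienced genes 35, and of the 18 Th17 genes 15, were higher in the NEMO than in the IKK2 knockout, where 15.4% of all genes were. The innate-like list shares Klrb1c, Klrd1, Klrk1 and Klre1 with the CD8 T and NK cell markers, whose median log2 difference was 0.96.

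Lists of cell growth and metabolism likewise held 0 called genes by limma, and the same 0.252% and 10.8% of all genes stand beside their counts. The medians were 0.38 for 33 cell cycle genes (2 genes at an unadjusted p under 0.05), 0.21 for 31 DNA replication genes (3 genes), 0.32 for 24 genes of cholesterol synthesis (8 genes), 0.10 for 20 glycolysis genes (1 gene), 0.03 for 28 respiratory chain genes (0 genes), -0.11 for 30 ribosomal protein genes (0 genes) and 0.05 for 28 proteasome genes (0 genes). Cyp51, a sterol demethylase, had a log2 response of -0.62 in the IKK2 knockout (adjusted p = 0.0215), 0.20 in the NEMO knockout (adjusted p = 0.94) and a log2 difference of 0.82 (SE 0.15, adjusted p = 0.0553). The remaining lists, with 0 called genes, had medians of -0.10 (30 interferon-stimulated genes, 0 genes at an unadjusted p under 0.05), -0.07 (28 immediate early genes, 4 genes), 0.06 (18 BCL2 family genes, 4 genes), 0.02 (8 GIMAP genes, 1 gene), 0.11 (24 stress response genes, 6 genes), -0.10 (14 cytokine feedback genes, 5 genes), 0.29 (23 chemokine and homing genes, 3 genes) and -0.05 (24 T cell receptor signalling genes, 1 gene). Within slides the median was 0.23 for cell cycle and 0.19 for chemokine and homing genes. The 14 lists with a median within 0.15 of 0, NF-kB lists included and Th17 genes left out, had medians of -0.12 to 0.16 under the alternatives run for lists.

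**Figure D4:**
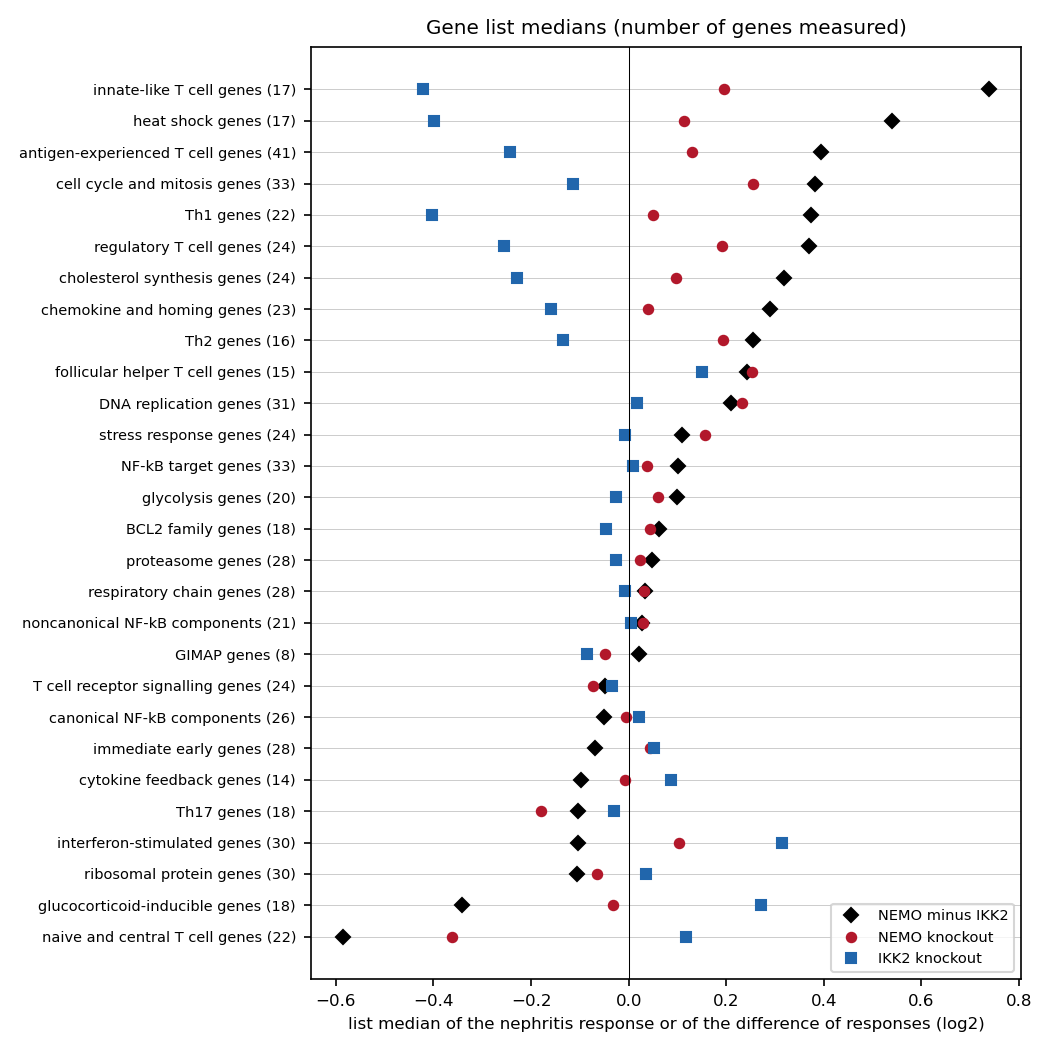
Median over each gene list (y axis, number of genes measured in brackets) of the log2 difference of responses (black diamonds) and of the log2 nephritis response in the NEMO knockout (red circles) and the IKK2 knockout (blue squares). Markers of other cell types are not drawn as lists, although some markers of CD8 T and NK cells also belong to the innate-like list. Among the lists drawn, the lowest medians of the difference belong to the naive and central genes (-0.59) and the glucocorticoid-inducible genes (-0.34), and the highest to the innate-like (0.74) and heat shock genes (0.54).

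Markers of cell types that the sort should remove differed between arrays, and 0 of them were called in the difference of responses by limma. Of 14 granulocyte markers, 13 were well above background on both NEMO nephritis arrays and 8 on both untreated NEMO arrays, where 4 were not well above background on either. The same counts were 10 on all 3 IKK2 nephritis arrays and 7 on all 3 untreated IKK2 arrays, where 4 were above on none. The mean log2 level over the 14 markers was 0.77 and -0.77 with nephritis and -2.54 and -3.13 untreated in the NEMO knockout, against -1.29, 0.61 and -1.27 with nephritis and -2.15, -2.06 and -2.56 untreated in the IKK2 knockout. The summed linear level was 225.9 to 292.6 with nephritis and 208 to 232.8 untreated in the NEMO knockout, and 291 to 390.7 with nephritis and 228.5 to 271.4 untreated in the IKK2 knockout. The median log2 response was 3.27 in the NEMO and 1.36 in the IKK2 knockout, and 11 and 7 of the markers had an unadjusted p under 0.05, against 6.38% and 14.9% of all genes. These medians were 1.33 and 0.56 with normexp background correction and 1.64 and 0.71 with the deposited matrix. In each knockout, 4 of the 14 markers were not well above background on any untreated array. Their responses rest on dim signals there, so the medians and the counts of p-values are descriptions and no support.

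The summed linear level of 13 erythroid markers was 126.2 to 155.9 with nephritis and 76.27 to 80 untreated in the NEMO knockout, and 119.9 to 176.7 with nephritis and 71.77 to 130.8 untreated in the IKK2 knockout. For 19 B cell markers it was 64.6 to 68.0 with nephritis and 41.5 to 47.6 untreated in the NEMO knockout, and 40.4 to 61.6 with nephritis and 45.8 to 51.5 untreated in the IKK2 knockout. Most B cell markers did not follow this rise of the sum in the NEMO knockout. Their median log2 response was -0.32 there, with 14 of 19 below 0, and -0.19 in the IKK2 knockout, with 12 of 19 below 0. For 8 plasma cell markers the summed linear level was 56.2 to 100.7 with nephritis and 48.8 to 53.7 untreated in the NEMO knockout, and 27.5 to 33.7 with nephritis and 31.0 to 39.1 untreated in the IKK2 knockout. The sum of 12 dendritic cell markers was larger, at 523.7 to 552.5 with nephritis and 431.1 to 494.4 untreated in the NEMO knockout. In the IKK2 knockout the dendritic sum was 379.4 to 410.1 with nephritis and 350 to 536.3 untreated. The median log2 differences of responses were -0.03 for B cell, 1.13 for plasma cell, 0.95 for myeloid, 1.28 for granulocyte, 0.66 for dendritic cell, 0.50 for erythroid, 0.56 for platelet and 0.96 for CD8 T and NK cell markers, against -0.04 for the T cell markers. With normexp background correction they were 0.44 for plasma cell, 0.70 for granulocyte, 0.20 for erythroid, 0.25 for platelet and 0.48 for CD8 T and NK cell markers, and the erythroid median was 1.0 within slides. The B cell median ranged from -0.12 to 0.13 and changed sign between settings. The part of such cells in the called differences was not tested, apart from a fit with the mean of the B cell markers as covariate, which called 18 genes, 16 of them among the 37.

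**Figure D5:**
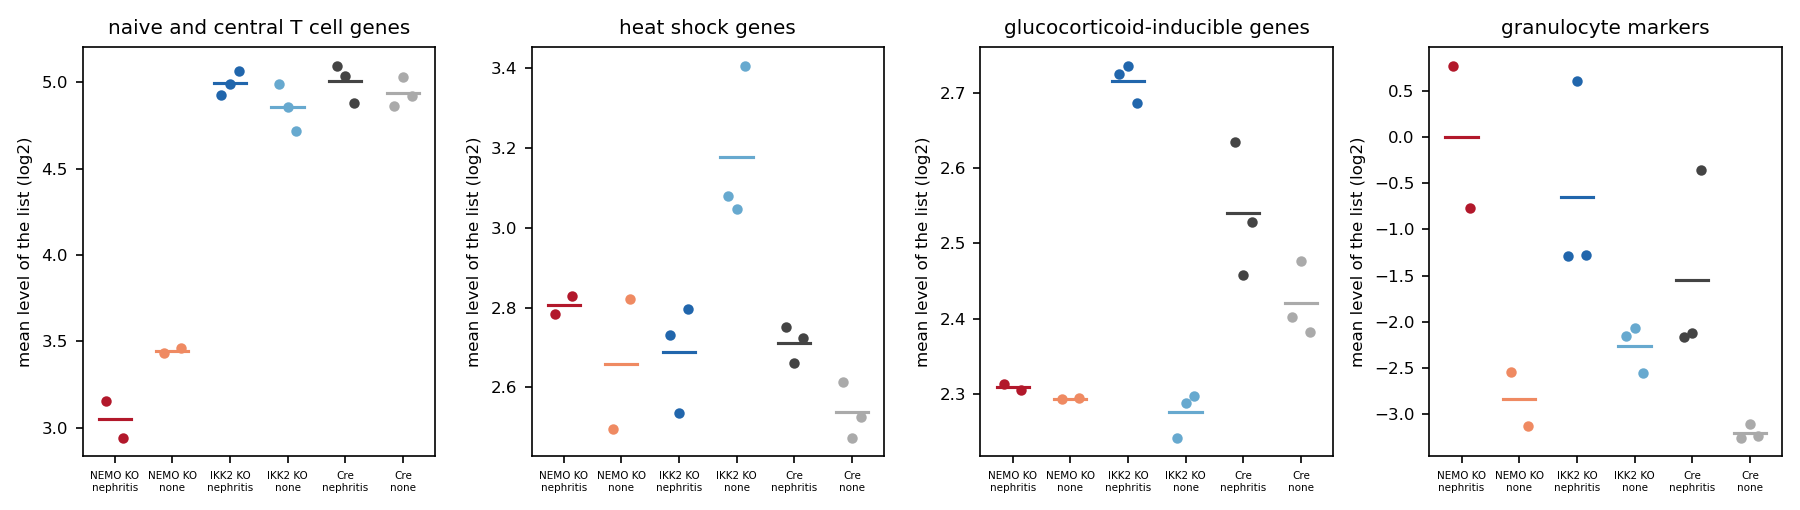
Mean log2 level (y axis, each panel with its own scale) over the naive and central T cell genes, the heat shock genes, the glucocorticoid-inducible genes and the granulocyte markers in the 6 groups (x axis), 1 point per array with the group mean as a bar. The naive and central genes are lower on all 4 NEMO arrays, the heat shock genes are highest on the 3 untreated IKK2 arrays, the glucocorticoid-inducible genes on the 3 IKK2 nephritis arrays, and the granulocyte markers are higher with nephritis in both knockouts.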

How the data were processed

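Agilent 1-colour mouse arrays were hybridised with RNA from splenic CD4+ T cells (16 arrays, 6 groups). Spot intensities were deposited as the output of Agilent Feature Extraction, version 10.5 per the submitters' processing notes and 10.7.3.1 per the file headers. The processed intensity is background-subtracted, per the file headers. The authors' deposited series matrix, with log2 values per probe of unstated normalization, had column medians of 5.65 to 5.68 and correlated at 0.994 to 0.999 with log2 of the median spot intensity, so its scale is log2; it was used as an alternative only.

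Of 62976 spots per array, 59305 were not controls. Controls were dropped, as were the 103 to 246 spots per array that carry an outlier flag, and replicate spots of a probe were averaged. The level is log2 of the processed intensity minus the array's 75th percentile, which was 237.1 to 419.4 intensity units. Probes were named through accessions in RefSeq (GRCm38.p6): 27235 of 55681 probes had a gene and 28446 were left unnamed. Promoter windows are from the same build, while the file headers name mm9, so no array coordinates are given. A gene stands for its probe with the highest mean level, counting those that were well above background on 2 or more arrays, which left 14675 genes. Group means over all 16 arrays were fitted with limma 3.58.1 (R 4.3.3; 11.8 residual plus prior degrees of freedom), and p-values were adjusted by Benjamini-Hochberg over all genes at 0.05. Python 3.11.15, numpy 2.4.6, pandas 2.3.3 and matplotlib 3.10.9 were used. The number of arrays limits the precision. Tested on simulated data for the difference of responses (14675 genes), the fit recovered 50 of 100 genes changed by 1 and 83 of 100 changed by 2 on the log2 scale, with 11 false calls.

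The files hold no mean spot signal, so the normexp alternative (offset 50) used the median spot and background intensities. Slide and scan coincide. Replicate numbers did not pair the samples: correlations of same-numbered deviations were 0.0456 in the NEMO knockout and -0.156, 0.126 and -0.199 in the IKK2 knockout. The other alternatives were quantile normalization, a percentile taken over detected probes only, other filters on dim probes, the 10 knockout arrays alone, slide as a block, a B cell covariate and leaving out single arrays.

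The members and gene lists were chosen with earlier results of these data known. Genes named by rule were the 12 most negative and up to 12 most positive called differences with a probe above background on every array of a knockout group, up to 4 called members per list, Ikbkb and Ikbkg. All other genes were named after their values were seen. Results for 2 genes are not reported here.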

Additional observations from a re-analysis of the deposited data

Results flagged for a closer look

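For 37 genes the test of the difference itself found that the nephritis response differed between the NEMO and IKK2 knockouts. Values of 36 of them follow. Slc24a4, Crx, Rbfox3, Adgrl2, Vmn2r16, Slc17a2, Vmn1r35, Gfra1 and 1700065J11Rik passed the filter on dim probes through the untreated NEMO arrays alone. Their calls and that of Spink13 support nothing, as stated in the Results. With nephritis in the NEMO knockout, signals were at least 7.55-fold (Slc24a4), 5.51-fold (Crx), 4.17-fold (Rbfox3), 3.82-fold (Dmbt1), 3.6-fold (Adgrl2), 3.34-fold (Vmn2r16), 3.09-fold (Slc17a2), 2.81-fold (Vmn1r35), 2.3-fold (Gfra1), 1.89-fold (Spink13), 1.8-fold (1700065J11Rik) and 1.49-fold (Abcb11) lower. Fan1 was at least 1.53-fold higher with nephritis in the IKK2 knockout. The log2 differences of responses (NEMO minus IKK2) were -2.12 for Bend5, -2.05 for Ephx4, -2.0 for 1700123K08Rik, -1.90 for Amigo2, -1.89 for Aldh1l1, -1.87 for Cxcr1 and -1.86 for Gnal. They were -1.52 for Padi3, -1.44 for Zc3h6, -1.41 for Cdr2l, -1.30 for Pik3ip1, -1.21 for Kcnh3, -1.15 for Odf3b, -1.09 for Itm2a, -1.08 for Slc7a3 and -1.02 for Bach2. The smallest negative ones were -0.93 for 2010315B03Rik, -0.88 for Ppp1r3f, -0.78 for She and -0.71 for Fbxl20. The positive ones were 1.18 for Plin2, 0.82 for Stip1 and 0.74 for Aacs. The groups held 2 or 3 arrays each, too few for the test of single outlying arrays.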

How the results depend on the processing

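The sign of the difference was kept by the 36 called genes reported here under every alternative run. Other probes, which few of these genes had, kept it too. The genes were chosen for their difference on these same arrays, so a kept sign is a description and no support. Of 742 gene-by-alternative results, 392 were no longer past the threshold. Slide as a block and leaving out untreated IKK2 replicate 3 are the same fit, and both are counted. The number of genes called for the difference was 72 with quantile normalization, 92 with a percentile over probes detected on every array, 0 with normexp (limma, 1104 genes at an unadjusted p under 0.05), 2 with the deposited matrix, 18 without the filter on dim probes, 58 with a strict filter, 1 with the 10 knockout arrays alone, 15 with slide as a block and 18 with the B cell covariate, and it ranged from 13 to 87 when single arrays were left out. In the NEMO knockout the count was 13 with normexp, 11 with the deposited matrix, 19 with the 10 arrays alone and 23 to 65 without single arrays. In the IKK2 knockout it was 161 with quantile normalization, 149 with that percentile, 41 with normexp, 33 without the filter, 28 with the 10 arrays alone and 8 to 163 without single arrays. With probes above background on all 10 knockout arrays, an alternative chosen after seeing the data, 54 genes were called for the difference and 154 in the IKK2 knockout. Genes called in both responses with opposite signs numbered 0 with normexp, the deposited matrix, no filter, the 10 arrays alone and the B cell covariate, 1 with slide as a block and with that added filter, and 0 to 2 without single arrays. The replicate number as a block gave 9 genes for the difference, 39 in the NEMO knockout, 32 in the IKK2 knockout and 0 with opposite signs, although the numbers do not pair the samples. The log2 difference of Ikbkb turned to 0.06 with normexp, 0.04 with the deposited matrix and 0.00 with slide as a block, and ranged from -0.16 to 0.08 without single arrays. The cause of these changes was not tested. Probes near background, and 2 arrays per NEMO group, limit what could be called.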

Other observations

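A pair of genes of antigen receptor rearrangement was higher with nephritis in the NEMO knockout without a called difference between the knockouts. Dntt, the template-independent DNA polymerase of that process, had log2 levels of 2.26 and 2.58 with nephritis and 1.59 and 1.17 untreated in the NEMO knockout, against 3.24, 3.50 and 3.13 with nephritis and 2.83, 2.92 and 2.85 untreated in the IKK2 knockout. Its log2 response was 1.04 in the NEMO knockout (adjusted p = 0.0317), and its log2 difference of responses was 0.62 (adjusted p = 0.340). Rag1, which cuts DNA in the same process, was well above background on the 2 NEMO nephritis arrays alone among the knockout arrays, at log2 levels of -4.84 and -4.43 against -7.47 and -6.43 untreated. It was at least 1.59-fold higher with nephritis in the NEMO knockout. Its probe passed the filter on dim probes through that group, so a test of it supports nothing.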
